A study of Mus musculus with 8 samples.

Results

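The proteasome genes were followed here across splenic conventional dendritic cells, the antigen-presenting cells of the spleen, from wild type (WT) and RAG2-/- mice, which lack T and B lymphocytes. Members were all probe sets whose single gene name belongs to the Psma, Psmb, Psmc, Psmd or Psme family followed by a number. The rule found 88 probe sets of 42 genes among 45101 probe sets on the arrays. It used names only and no measured value. 67 of these probe sets, from 40 genes, reached log2 5 on at least 2 of the 8 arrays and were tested, with the brightest probe set standing for each gene, among 8763 genes tested in all.

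The cells came from spleens of untreated female C57BL/6 mice, 10 weeks old in the labels, and were sorted as CD8α- or CD8α+ cells. The 4 groups were WT CD8α-, WT CD8α+, RAG2-/- CD8α- and RAG2-/- CD8α+, with 2 arrays each, and the labels name no treatment, transgene or other allele in either genotype. RAG2-/- animals still have macrophages, neutrophils and natural killer (NK) cells, and the deletion is present in every cell, so it is not specific to lymphocytes. Whether the 2 arrays of a group stand for different animals is not in the labels, so p-values here cover only the spread among these arrays, which may be technical. Values are log2 expression as deposited, differences are on the log2 scale, and errors of differences are standard errors (SE) from limma.

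The proteasome degrades proteins marked with ubiquitin. Its core is a stack of rings of α subunits (Psma) and β subunits (Psmb), of which only some β subunits cut peptide bonds, and a regulatory particle of ATPases (Psmc) and other subunits (Psmd) binds, unfolds and feeds the substrate. In dendritic cells and under interferon-gamma the catalytic subunits Psmb5, Psmb6 and Psmb7 are exchanged for Psmb8, Psmb9 and Psmb10, which gives the immunoproteasome. Together with the PA28 cap, made of Psme1 and Psme2, it changes which peptides reach MHC class I. CD8α+ dendritic cells are known for presenting peptides of engulfed material on MHC class I.

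Some facts of the arrays touch every result. Cd8a was at 11.73 to 12.51 on the CD8α+ arrays and 5.80 to 7.70 on the CD8α- arrays, Cd4 ran the other way, and the dendritic cell genes Itgax and Flt3 were at 11.84 or more on all 8. Rag1 and Rag2 stayed below 5 on all arrays and so check nothing. The 4 knockout arrays share 1 lowest value, 2.23, held by 40.4% to 41.9% of probe sets, whereas on each WT array 1 probe set holds the lowest value. In every comparison between genotypes, such a difference in processing and the genotype cannot be told apart. Summed transcripts of a neutrophil list were at 13.03 on RAG2-/- CD8α- replicate 2 and 11.60 on RAG2-/- CD8α+ replicate 1, against 5.95 to 6.70 on the other 6 arrays, so the counts of calls were also taken without both. In sorted bulk cells, fewer cells of a type and less RNA per cell cannot be told apart.

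Psmb9, the immunoproteasome subunit that replaces Psmb6, was higher in CD8α+ cells in both genotypes. It was at 11.57 and 11.67 in WT CD8α- cells, 12.61 and 12.70 in WT CD8α+ cells, 11.85 and 12.10 in knockout CD8α- cells and 13.44 and 13.29 in knockout CD8α+ cells. No CD8α- array reached a CD8α+ array of either genotype. The difference was 1.03 ± 0.17 in WT (2.05-fold; limma adjusted p = 0.00697) and 1.39 ± 0.17 in the knockout (2.61-fold; limma adjusted p = 0.00189). Its call in WT was lost without WT CD8α- replicate 1 and kept when any other array was left out. In the knockout the call was kept whichever array was left out, and without both arrays with neutrophil transcripts the knockout difference was 1.44 ± 0.20 (limma adjusted p = 0.0215).

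Psmb9 lies next to Tap1 on chromosome 17, and RefSeq's gene order there reads Psmb9, Tap1, Psmb8, Tap2 with no other protein-coding gene between. Tap1 and Tap2 encode the transporter that carries proteasome products into the endoplasmic reticulum. The promoter windows of RefSeq (build GRCm38.p6, 250 bases before to 50 after a start) of Psmb9 and Tap1 share 275 bases on opposite strands. The shared bases reach past each start, and only the part between both starts precedes both genes. The Psmb9 sequence below therefore opens with bases that lie after the start of Tap1. The bases upstream of Psmb9 (chr17:34187331-34187580, minus strand) and of Psmb8 (chr17:34197945-34198194, plus strand) are shown because both genes were higher in CD8α+ cells. Capitals in the Psmb8 sequence mark a match to TTCNNNGAA, the binding motif of STAT proteins downstream of interferon-gamma, at -97 to -89.
Psmb9: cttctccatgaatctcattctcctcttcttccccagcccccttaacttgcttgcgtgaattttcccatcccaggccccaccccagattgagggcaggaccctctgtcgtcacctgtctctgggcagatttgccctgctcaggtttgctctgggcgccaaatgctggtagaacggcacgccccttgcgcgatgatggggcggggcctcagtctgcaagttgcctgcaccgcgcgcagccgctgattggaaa
Psmb8: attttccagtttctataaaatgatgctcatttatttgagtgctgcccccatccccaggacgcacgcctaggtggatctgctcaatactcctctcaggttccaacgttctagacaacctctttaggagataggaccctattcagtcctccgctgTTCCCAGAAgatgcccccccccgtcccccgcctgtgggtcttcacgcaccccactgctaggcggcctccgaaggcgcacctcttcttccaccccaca
That motif, which reads the same on both strands, was found in 8.30% of 32851 RefSeq mouse promoter windows and in 2 of 37 windows of 35 member genes. In the Psmb9 and Psmb10 windows none of the 4 motifs searched was found, which says only that these letters are not in those windows.

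Psmb8, which replaces Psmb5, was at 10.90 and 10.36 in WT CD8α- cells and 11.27 and 11.86 in WT CD8α+ cells. On the knockout arrays it was at 11.89 and 11.59 in CD8α- cells and 12.62 and 12.79 in CD8α+ cells. Within each genotype both CD8α+ arrays lay above both CD8α- arrays. The difference was close to the same in each, 0.94 ± 0.28 in WT (limma adjusted p = 0.0601, not called) and 0.96 ± 0.28 in the knockout (limma adjusted p = 0.0471, a call lost without any 1 of the knockout arrays or of the WT CD8α- arrays). Averaged over the genotypes it was 0.95 ± 0.20 (1.93-fold; limma adjusted p = 0.00948), a call kept when any single array was left out, though not without both arrays with neutrophil transcripts (0.91 ± 0.26; limma adjusted p = 0.0689). A dimmer second probe set of Psmb8 gave a subset difference of 0.09 in WT and 0.95 in the knockout.

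Psmb10, which replaces Psmb7, was not called between the subsets. The arrays read 10.26 and 10.04 in WT CD8α- cells, 10.19 and 10.23 in WT CD8α+ cells, 10.73 and 10.78 in knockout CD8α- cells and 10.95 and 10.88 in knockout CD8α+ cells. The WT subsets overlapped. The subset difference was 0.06 ± 0.17 in WT and 0.16 ± 0.17 in the knockout, and averaged over genotypes its 95% interval ran from -0.17 to 0.38 (limma adjusted p = 0.521). That interval does not reach the averaged difference of Psmb9, 1.21 ± 0.12, though the difference between the genes was not tested.

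Psme1, the PA28α subunit of the cap, was at 11.54 and 11.31 in WT CD8α- cells, 11.42 and 12.46 in WT CD8α+ cells, 12.63 and 12.47 in knockout CD8α- cells and 13.50 and 13.65 in knockout CD8α+ cells. The lower WT CD8α+ array sat between the WT CD8α- arrays. The averaged subset difference was 0.77 ± 0.23 (limma adjusted p = 0.0421) and was called in 2 of the 8 fits that each left out 1 array, those without a WT CD8α+ array. Without both arrays with neutrophil transcripts it was 0.76 ± 0.33 (limma adjusted p = 0.165). Psme2, the partner of Psme1, has only a probe set that also carries the name Psme2b, so it has no value here.

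**Figure D1:**
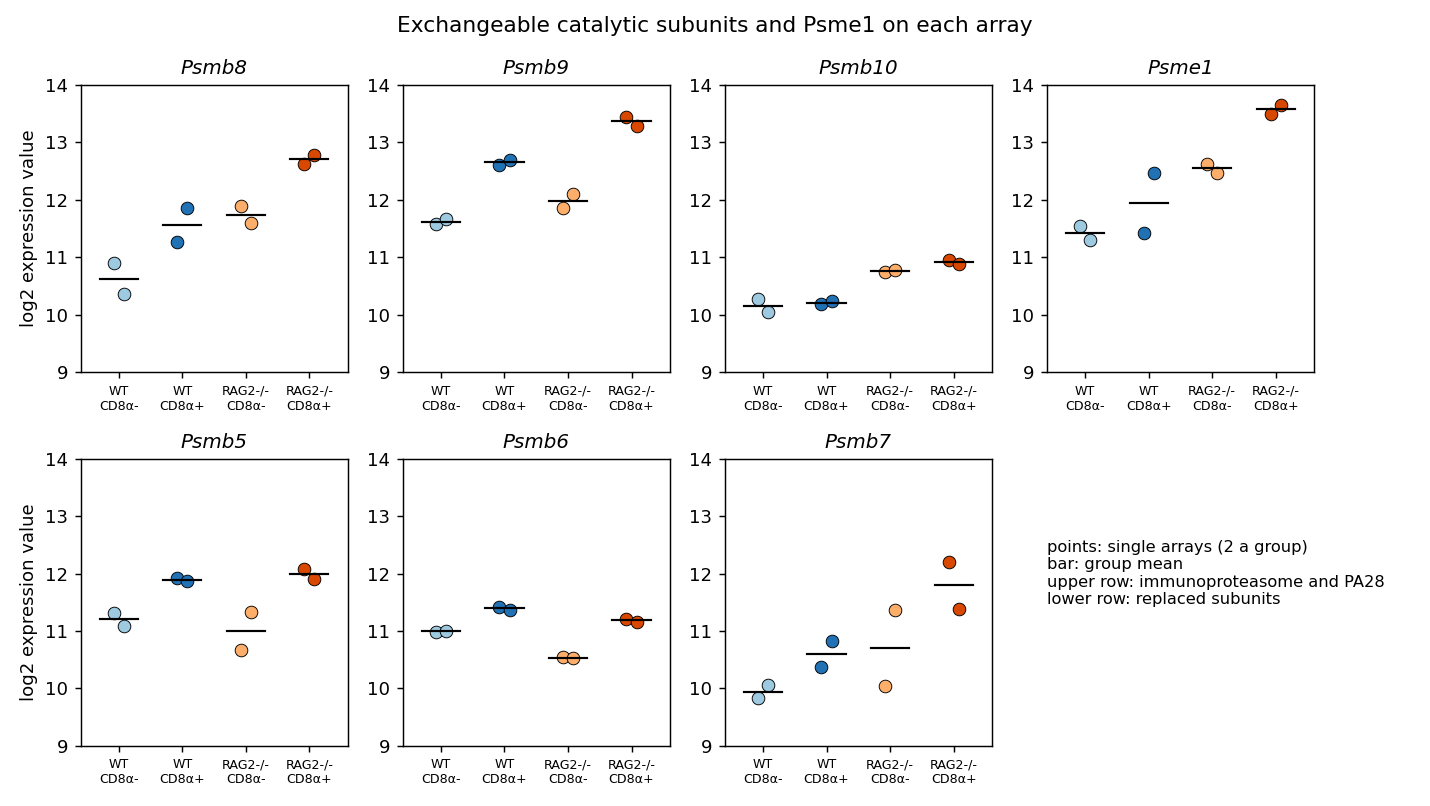
Log2 expression value (y axis) of Psmb8, Psmb9, Psmb10 and Psme1 (upper row) and of the subunits that the first 3 replace, Psmb5, Psmb6 and Psmb7 (lower row), with 1 point for each array and a bar for the mean of the 2 arrays of a group. Psmb9 lies at 11.57 and 11.67 in WT CD8α- cells and at 12.61 and 12.70 in WT CD8α+ cells, whereas Psmb10 lies between 10.04 and 10.26 in both, and levels are to be read within a panel only.

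The replaced catalytic subunits were also higher in CD8α+ cells, so the subset difference was not limited to the immunoproteasome genes. Psmb5, the chymotrypsin-like subunit, was at 11.32 and 11.09 in WT CD8α- cells, 11.91 and 11.88 in WT CD8α+ cells, 10.67 and 11.33 in knockout CD8α- cells and 12.08 and 11.91 in knockout CD8α+ cells. Psmb6, the caspase-like subunit, was at 10.99 and 11.01 in WT CD8α- cells, 11.42 and 11.37 in WT CD8α+ cells, 10.54 and 10.53 in knockout CD8α- cells and 11.21 and 11.16 in knockout CD8α+ cells. Psmb7, the trypsin-like subunit, was at 9.83 and 10.06 in WT CD8α- cells, 10.37 and 10.82 in WT CD8α+ cells, 10.04 and 11.36 in knockout CD8α- cells and 12.21 and 11.39 in knockout CD8α+ cells. In each of the 3 genes the CD8α+ arrays lay above the CD8α- arrays of the same genotype, as they did in 21.1% of all genes. The averaged differences were 0.84 ± 0.17 for Psmb5 (limma adjusted p = 0.00948), 0.52 ± 0.11 for Psmb6 (limma adjusted p = 0.0099) and 0.88 ± 0.33 for Psmb7, whose knockout arrays spread widely (limma adjusted p = 0.0808, not called).

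The exchange of subunits was described on each array by the log2 value of an immunoproteasome gene less that of the gene it replaces. Only changes of this value between arrays can be read, since probe sets differ in brightness. Psmb9 less Psmb6 was 0.59 and 0.66 in WT CD8α- cells, 1.19 and 1.33 in WT CD8α+ cells, 1.32 and 1.57 in knockout CD8α- cells, and 2.13 and 2.22 in knockout CD8α+ cells. It was 0.64 higher in CD8α+ than CD8α- cells of WT and 0.74 higher in the knockout, so Psmb9 stood further apart between subsets than Psmb6. Psmb8 less Psmb5 changed by 0.25 and -0.03 between the subsets, less than the gap between replicate arrays, and both genes were higher to a similar extent. Psmb10 less Psmb7 went the other way, with changes of -0.60 in WT and -0.94 in the knockout. In the knockout the CD8α- arrays, at 0.70 and -0.58, lay further apart than that change and overlapped the CD8α+ arrays, at -1.26 and -0.51. None of these values was tested.

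**Figure D2:**
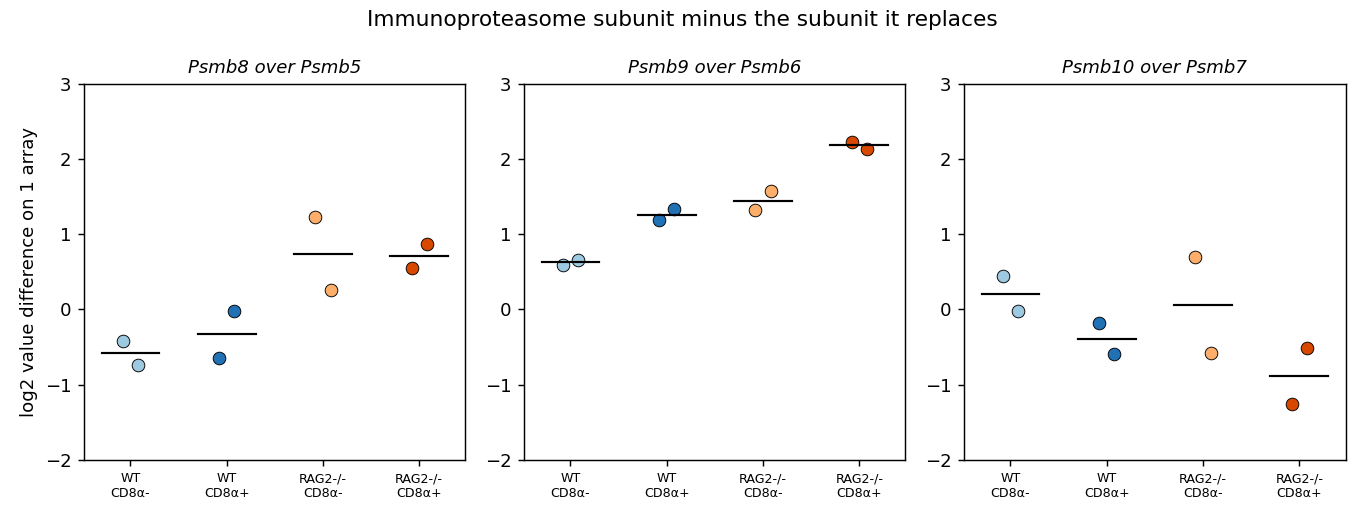
Log2 value of Psmb8, Psmb9 or Psmb10 less that of Psmb5, Psmb6 or Psmb7 on the same array (y axis), by group, with 1 point for each array and a bar for the group mean. The middle panel climbs from 0.59 to 2.22 across the groups, while the left panel separates the genotypes (-0.73 to -0.02 against 0.26 to 1.23) more than the subsets.

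Across all 40 members, the shift toward CD8α+ cells was broad and shallow. In WT, 38 of 40 had a difference above 0, with a median of 0.38, where all genes tested had a median of 0.01. 5 members rose, Psmb9, Psma4, Psma7, Psmb1 and Psmd12, and 0 fell, against 9.23% of all genes called higher and 7.87% called lower, so the share of members called higher was close to that of all genes. In the knockout 39 of 40 were above 0, the median was 0.48, and 8 members rose, Psma5, Psma6, Psmb1, Psmb2, Psmb5, Psmb6, Psmb8 and Psmb9, with 0 that fell, against 11.1% and 10.7% of all genes. In 28 members both WT CD8α+ arrays lay above both WT CD8α- arrays, as they did in 32.4% of all genes, and in 0 members below, against 28.3%. For the knockout these were 29 members, against 30.6%, and 0 members, against 27.6%.

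The 2 genotypes were measured on separate arrays, and 37 of 40 members (92.5%) had the same sign of the subset difference in both, against 77.4% of all genes. Psmb9 and Psmb1 were called in both. The remaining members called in 1 genotype were not shown to differ between genotypes, since the interaction called 0 members by limma, where 0.24% of all genes were called, and 2 members, Psmb2 and Psmd6, had an unadjusted p under 0.05. The WT count was 1 (Psmb9) and the knockout count 4 (Psmb2, Psmb5, Psmb9 and Psme3) without both arrays with neutrophil transcripts, a fit with fewer arrays. When a single array was left out, the WT count was 1 without either WT CD8α- array, 3 without WT CD8α+ replicate 1 and 2 without WT CD8α+ replicate 2. The knockout count was 2 without either RAG2-/- CD8α+ array, 3 without RAG2-/- CD8α- replicate 1, and 4 without RAG2-/- CD8α- replicate 2 or either WT CD8α- array.

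**Figure D3:**
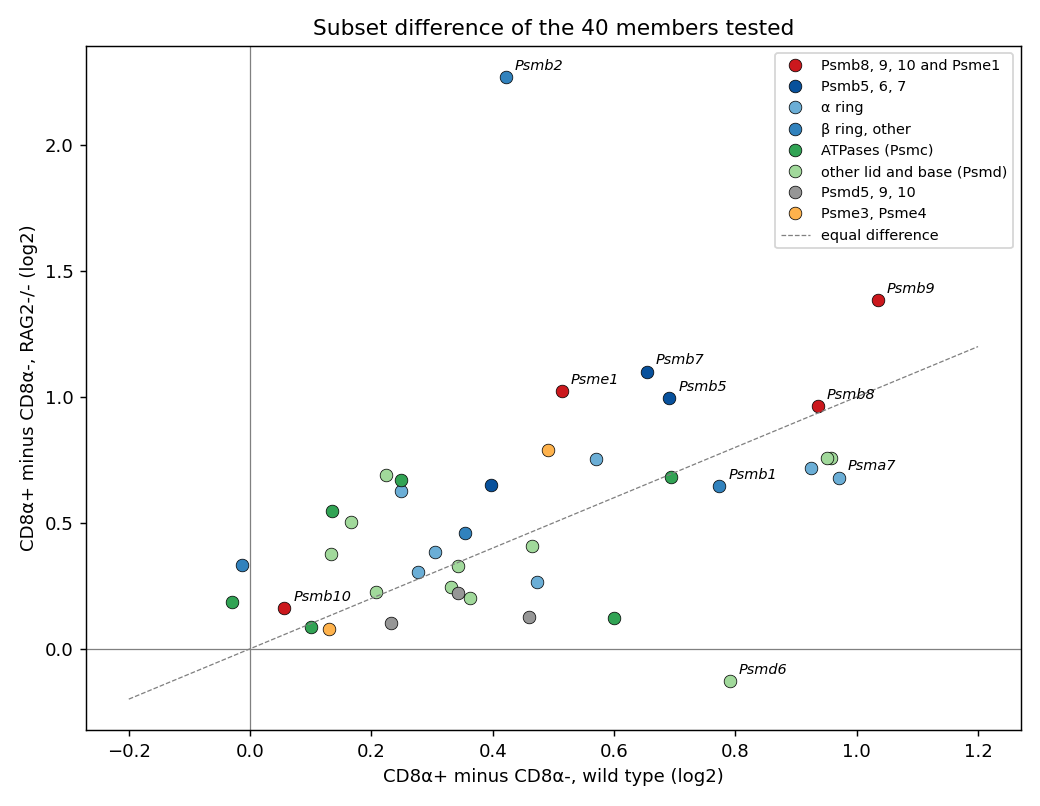
Subset difference (CD8α+ minus CD8α-, log2) in WT (x axis) against the knockout (y axis), with 1 point for each of the 40 members, coloured by role, and a dashed line for equal differences. All but 3 members are above 0 on both axes, Psmb2 stands alone at 2.27 in the knockout, and Psmd6 is the only member below 0 there.

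Averaged over the genotypes, where an offset shared by all arrays of a genotype cancels, all 40 members had a difference above 0, with a median of 0.39 against 0.02 for all genes. 15 members rose and 0 fell, against 16.8% and 14.9% of all genes called higher and lower. In 21 members the arrays of the subsets did not overlap in either genotype, with CD8α+ higher, against 21.1% of all genes. By role, 10 of the 14 constitutive core subunits rose, with a median of 0.59, as did 3 of the 4 immunoproteasome and PA28 genes, with a median of 0.86, and 2 of the 20 regulatory particle genes and their chaperones, with a median of 0.33. The share of 10 in 14 and that of 2 in 20 were not compared by a test. 9 of the 15 calls were kept whichever single array was left out, those of Psma4, Psma5, Psma7, Psmb1, Psmb2, Psmb5, Psmb6, Psmb8 and Psmb9. Without WT CD8α- replicate 2 the count was 9, and without both arrays with neutrophil transcripts it was 10, with Psmb9 among them. Psma3, Psma6, Psma7, Psmb4, Psmb8, Psmc3 and Psme1 lost the averaged call there, and Psmb7 and Psme3 gained it.

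**Figure D4:**
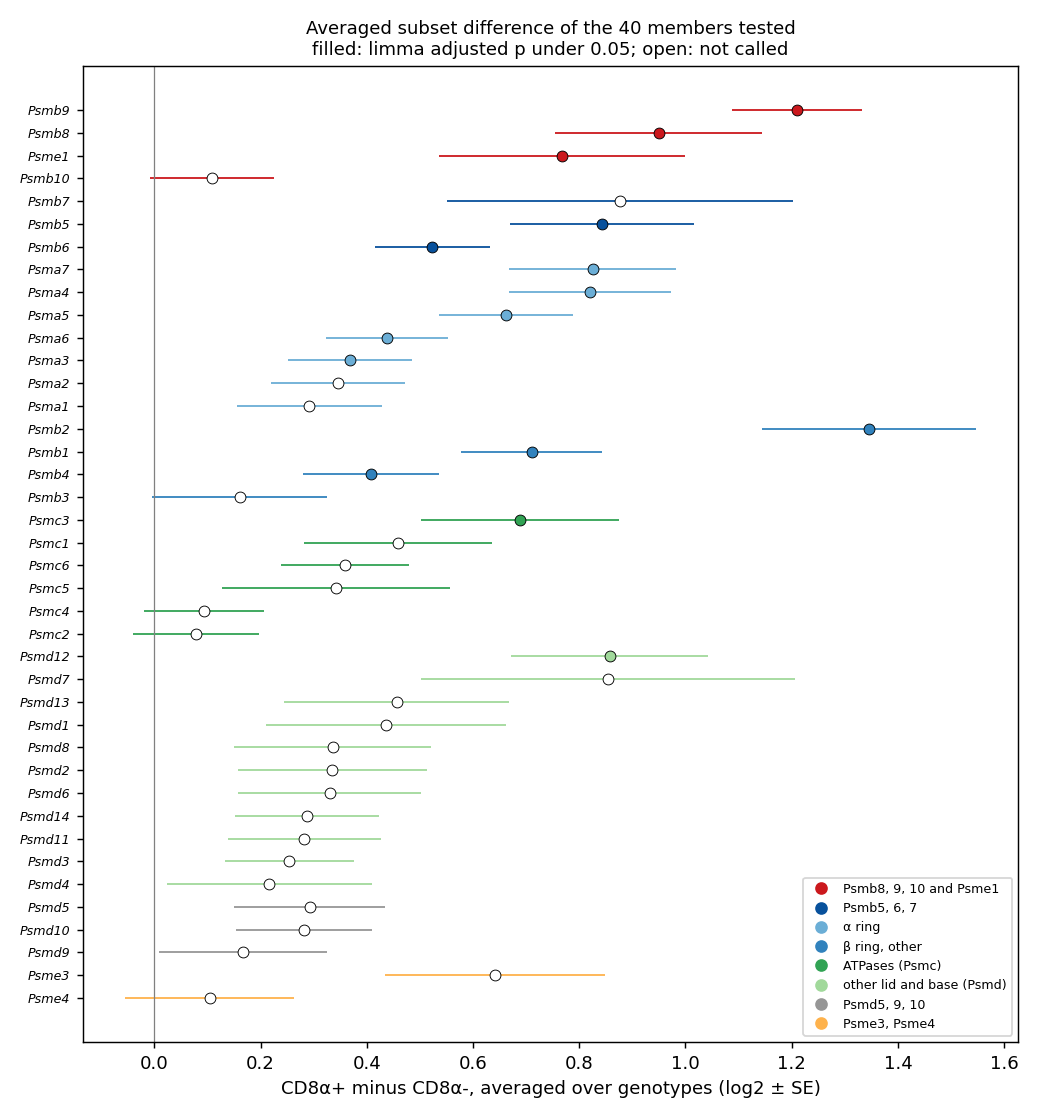
Subset difference averaged over the genotypes (x axis, log2, with SE bars) for each of the 40 members (y axis), grouped and coloured by role, with filled points for an adjusted p under 0.05 by limma. All points are above 0, from 0.08 for Psmc2 to 1.35 for Psmb2, and filled points are mostly core subunits.

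The 7 α ring subunits form the outer rings and the gate of the core. All were higher in CD8α+ cells on every array within each genotype, as were 21.1% of all genes. On average 5 were called, beside 16.8% of all genes called higher. Psma4 was at 10.76 and 10.31 in WT CD8α- cells, 11.42 and 11.50 in WT CD8α+ cells, 11.09 and 10.82 in knockout CD8α- cells and 11.56 and 11.79 in knockout CD8α+ cells, an averaged difference of 0.82 ± 0.15 (limma adjusted p = 0.00617). Psma7 was at 9.86 and 10.18 in WT CD8α- cells, 11.25 and 10.74 in WT CD8α+ cells, 10.16 and 10.14 in knockout CD8α- cells and 10.88 and 10.78 in knockout CD8α+ cells, and its second probe set gave an averaged difference of 1.16 beside 0.82 for the first. In both genes the subset gap exceeded the gap between replicates. The WT call of Psma4 was lost without WT CD8α- replicate 2 or either WT CD8α+ array, and that of Psma7 without either WT CD8α- array or WT CD8α+ replicate 1.
Psma5 was at 11.87 and 11.70 in WT CD8α- cells, 12.39 and 12.31 in WT CD8α+ cells, 12.37 and 12.10 in knockout CD8α- cells and 12.93 and 13.05 in knockout CD8α+ cells (0.66 ± 0.13 on average; limma adjusted p = 0.00683), and its knockout call was lost without RAG2-/- CD8α- replicate 2 or either RAG2-/- CD8α+ array. Psma6 was at 12.68 and 12.62 in WT CD8α- cells, 12.81 and 12.99 in WT CD8α+ cells, 12.11 and 12.20 in knockout CD8α- cells and 12.80 and 12.76 in knockout CD8α+ cells (0.44 ± 0.11; limma adjusted p = 0.0258), a call kept only without WT CD8α+ replicate 1 or RAG2-/- CD8α- replicate 2. Of its 4 probe sets above the filter, the second brightest gave 0.29 on average, not called, and the lowest gave -0.28. Psma3 was at 13.55 and 13.61 in WT CD8α- cells, 14.04 and 14.07 in WT CD8α+ cells, 13.43 and 13.25 in knockout CD8α- cells and 13.53 and 13.68 in knockout CD8α+ cells (0.37 ± 0.12; limma adjusted p = 0.0499), a call lost when any single array was left out. Psma1 and Psma2 were not called, with averaged differences of 0.29 and 0.35. Psma8, a member expressed mainly in testis, was at 3.88 to 5.05 and was not tested.

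The β ring subunits that do not cut peptides included the member with the largest averaged difference. Psmb2 was at 7.25 and 7.50 in WT CD8α- cells, 7.58 and 8.01 in WT CD8α+ cells, 7.28 and 6.61 in knockout CD8α- cells and 9.04 and 9.39 in knockout CD8α+ cells. The WT subsets lay close without overlap, whereas both knockout CD8α+ arrays stood above all other arrays. Its knockout subset difference was 2.27 ± 0.28 (4.82-fold; limma adjusted p = 0.00188), a call kept without each array in turn and without both arrays with neutrophil transcripts. The interaction for Psmb2 was 1.85 ± 0.40, the largest of all members, with a limma adjusted p of 0.245, so the genotypes were not shown to differ. Psmb2 has 1 probe set on the arrays.
Psmb1 was at 10.84 and 10.82 in WT CD8α- cells, 11.42 and 11.78 in WT CD8α+ cells, 11.14 and 11.09 in knockout CD8α- cells and 11.86 and 11.67 in knockout CD8α+ cells, with an averaged difference of 0.71 ± 0.13 (limma adjusted p = 0.00628). Its WT call was lost without either WT CD8α- array or WT CD8α+ replicate 2, and its knockout call without any 1 of the knockout arrays or of the WT CD8α- arrays. A dimmer second probe set of Psmb1, at 5.11 to 5.54, gave an averaged difference of 0.007. Psmb4 was at 13.48 and 13.42 in WT CD8α- cells, 13.95 and 13.67 in WT CD8α+ cells, 12.08 and 11.98 in knockout CD8α- cells and 12.39 and 12.59 in knockout CD8α+ cells (0.41 ± 0.13; limma adjusted p = 0.0479), a call kept in 1 of the 8 fits that left out an array, the one without WT CD8α+ replicate 2. Psmb3, not called, had an averaged difference of 0.16. Psmb11, the catalytic subunit of the thymus, did not exceed 2.49 on any array.

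In the regulatory particle, the 6 ATPases had averaged differences from 0.08 for Psmc2 to 0.69 for Psmc3, and only Psmc3 was called. Psmc3 was at 11.41 and 10.92 in WT CD8α- cells, 11.60 and 12.11 in WT CD8α+ cells, 10.61 and 10.97 in knockout CD8α- cells and 11.53 and 11.41 in knockout CD8α+ cells (limma adjusted p = 0.0288). Its call was lost without WT CD8α- replicate 2, WT CD8α+ replicate 2, RAG2-/- CD8α- replicate 1 or either RAG2-/- CD8α+ array. Of the 11 other lid and base subunits, Psmd12, a scaffold subunit of the lid, was the one called. It was at 10.14 and 9.75 in WT CD8α- cells, 10.65 and 11.16 in WT CD8α+ cells, 9.54 and 9.50 in knockout CD8α- cells and 10.04 and 10.52 in knockout CD8α+ cells, a difference of 0.86 ± 0.19 on average (limma adjusted p = 0.0118), lost only without WT CD8α- replicate 2, while its call in WT alone was lost whichever array was left out. The 10 not called ranged from 0.22 to 0.85.
Psmd6, another lid subunit, had the lowest interaction. It was at 11.16 and 11.48 in WT CD8α- cells, 12.10 and 12.12 in WT CD8α+ cells, 11.53 and 11.47 in knockout CD8α- cells and 11.69 and 11.05 in knockout CD8α+ cells, and the interaction was -0.92 ± 0.34 (limma adjusted p = 0.588). The WT arrays separated by subset and the knockout arrays overlapped. The chaperones Psmd5, Psmd9 and Psmd10, which assemble the base, had averaged differences from 0.17 to 0.29, and the alternative caps Psme3 and Psme4 had 0.64 and 0.10, with no call among the 5.

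Genes that make or serve the proteasome were read from lists chosen by function. Pomp, the maturation factor that guides β subunits into the new core, was at 11.51 and 11.16 in WT CD8α- cells, 12.30 and 12.44 in WT CD8α+ cells, 11.91 and 11.72 in knockout CD8α- cells and 12.82 and 13.04 in knockout CD8α+ cells. Its arrays did not overlap between subsets, and its difference was 1.03 ± 0.20 in WT (limma adjusted p = 0.0124) and 1.11 ± 0.20 in the knockout (limma adjusted p = 0.00817). Of the 11 assembly and associated genes tested, 5 rose on average and 0 fell, beside 16.8% and 14.9% of all genes. Besides Pomp these were the core assembly chaperones Psmg3 (0.56 ± 0.13) and Psmg4 (1.09 ± 0.25) and the deubiquitinating enzymes Uchl5 (0.53 ± 0.12) and Usp14 (0.66 ± 0.20), which sit on the regulatory particle. Without both arrays with neutrophil transcripts 4 of the 5 averaged calls were kept, all but that of Psmg3, and the knockout call of Pomp was lost. Nfe2l2, a stress-response transcription factor of this list, fell in CD8α+ cells of the knockout (-0.90 ± 0.25; limma adjusted p = 0.0414), a call lost without those arrays. Of the ubiquitin genes and activating enzymes, only Uba6, a ubiquitin-activating enzyme, had a probe set of its own that was tested, and it rose on average by 0.91 ± 0.19 (limma adjusted p = 0.0106).

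Downstream of the proteasome, 4 of the 5 peptide transport and trimming genes tested rose in CD8α+ cells on average, beside 16.8% of all genes. They also did so without both arrays with neutrophil transcripts, beside 15.3% of all genes. Tap1 was at 10.73 and 10.41 in WT CD8α- cells, 11.32 and 11.62 in WT CD8α+ cells, 11.74 and 11.21 in knockout CD8α- cells and 12.59 and 12.56 in knockout CD8α+ cells, an averaged difference of 2-fold (limma adjusted p = 0.00396). Tap2 was at 8.51 and 8.58 in WT CD8α- cells, 9.58 and 10.06 in WT CD8α+ cells, 9.02 and 8.82 in knockout CD8α- cells and 10.30 and 10.35 in knockout CD8α+ cells (1.34 ± 0.15 on the log2 scale; limma adjusted p = 0.000528). Erap1, which trims peptides in the endoplasmic reticulum, differed by 0.76 ± 0.16 and Lap3, a cytosolic aminopeptidase, by 2.32 ± 0.21. With Psmb9 and Psmb8, the 4 neighbouring genes of the chromosome 17 stretch were thus each called higher in CD8α+ cells on average. The call of Psmb8 was lost without both arrays with neutrophil transcripts.
Of 8 tested regulators known to induce immunoproteasome genes, 2 rose on average and 1 fell, near the shares of all genes (16.8% and 14.9%). Irf8, a transcription factor required for CD8α+ dendritic cells, differed by 3.18 ± 0.39 (limma adjusted p = 0.000958), and Nlrc5, the transactivator of MHC class I genes, by 1.05 ± 0.21 (limma adjusted p = 0.0077). Jak2, a kinase of the interferon-gamma receptor, differed by -0.52 ± 0.14 (limma adjusted p = 0.0251), a call lost without both arrays with neutrophil transcripts.

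Transcripts of other cells were read beside the subset differences. No tested gene of the neutrophil (6) or NK cell (3) lists was called between subsets in either genotype or on average. Over all genes 7.87% were called lower in WT, 10.7% in the knockout and 14.9% on average, and 9.23%, 11.1% and 16.8% higher. Of 9 macrophage genes 3 fell in CD8α+ cells of each genotype and 4 fell on average. Of 6 B cell genes 1 fell in WT, 2 rose and 1 fell in the knockout, and 1 rose and 1 fell on average. Of 3 T cell genes 0 were called in WT and 1 fell in the knockout and on average. Of 6 plasmacytoid genes 1 rose in each genotype, and 2 rose and 1 fell on average. Summed macrophage transcripts were at 13.30 and 13.56 in WT CD8α- cells and 12.44 and 12.97 in WT CD8α+ cells. On knockout arrays they were at 15.44 and 15.53 in CD8α- cells and 14.09 and 13.75 in CD8α+ cells. Their part in the subset differences was not tested.

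Between genotypes, the immunoproteasome genes were higher in the knockout, while other members went both ways. In CD8α- cells 3 of the 4 immunoproteasome and PA28 genes rose, Psmb8 by 1.11 ± 0.28 (limma adjusted p = 0.0181), Psmb10 by 0.60 ± 0.17 (limma adjusted p = 0.0256) and Psme1 by 1.13 ± 0.33 (limma adjusted p = 0.0311). Psmb9 differed by 0.36 ± 0.17 (limma adjusted p = 0.139). In CD8α+ cells all 4 rose, Psmb8 by 1.14 ± 0.28 (limma adjusted p = 0.0182), Psmb9 by 0.71 ± 0.17 (limma adjusted p = 0.019), Psmb10 by 0.71 ± 0.17 (limma adjusted p = 0.0164) and Psme1 by 1.63 ± 0.33 (limma adjusted p = 0.00944). For each of these genes both knockout arrays lay above both WT arrays in each subset, as they did in 42.6% of all genes in CD8α- and 39.7% in CD8α+ cells.

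The limits of this comparison are larger than for the subsets. In the knockout CD8α- cells 23.4% of all genes were called higher and 17.1% lower, and in the knockout CD8α+ cells 20.8% and 16.1%. Processing cannot be told apart from the genotype, and a second probe set of Psmb8 went the other way, at 8.21 and 8.11 in WT CD8α- cells against 7.21 and 6.84 in the knockout, a difference of -1.13 that was itself called lower. Psmb9, Psmb10 and Psme1 have 1 probe set each. Psmb8 lost its call in CD8α- cells without WT CD8α- replicate 2 or RAG2-/- CD8α- replicate 1, Psmb10 without any CD8α- array, and Psme1 without any CD8α- array or either RAG2-/- CD8α+ array. In CD8α+ cells Psme1 lost it without RAG2-/- CD8α+ replicate 2, Psmb8 without WT CD8α+ replicate 1 or either RAG2-/- CD8α+ array, and Psmb9 and Psmb10 without either WT CD8α+ array or RAG2-/- CD8α+ replicate 1. Under quantile normalization and centring all 4 stayed above 0 in both subsets, with Psmb10 (0.38; limma adjusted p = 0.125) and Psme1 (0.90; limma adjusted p = 0.0551) no longer called in CD8α- cells after quantile normalization. None of the 7 calls was kept without both arrays with neutrophil transcripts, where adjusted p by limma ran from 0.0592 to 0.118 and the differences from 0.58 to 1.71.

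Over all members, 5 rose and 6 fell in knockout CD8α- cells, with a median of 0.05 against 0.14 for all genes, and 10 rose and 5 fell in knockout CD8α+ cells, with a median of 0.06 against 0.09. In 13 members the knockout CD8α- arrays lay above the WT arrays, against 42.6% of all genes, and in 13 below, against 31.8%. In CD8α+ cells these were 15 members, against 39.7%, and 14 members, against 32.3%. The 10 of 40 members called higher in CD8α+ cells stood slightly above the share of all genes, 20.8%. The other shares of the 40 members were near or below those of all genes. The CD8α- count was 5 without WT CD8α- replicate 2, and 7 without WT CD8α- replicate 1 or either RAG2-/- CD8α- array, and the CD8α+ count was 8 without WT CD8α+ replicate 1 and 9 without either RAG2-/- CD8α+ array. Without both arrays with neutrophil transcripts 1 rose and 4 fell in CD8α- cells, and 3 rose and 4 fell in CD8α+ cells. Under quantile normalization of the 8 arrays the split was 3 higher and 8 lower in CD8α- cells and 7 and 8 in CD8α+ cells, and with each array centred on its median it was 22 and 3, and 23 and 2. Centring moved the median of all genes by 0.66 in CD8α- and 0.67 in CD8α+ cells, and quantile normalization by -0.10 and -0.03.
Relative to the median of all genes, the 4 immunoproteasome and PA28 genes had a median of 0.72 in CD8α- and 0.84 in CD8α+ cells, and 0.60 and 0.76 after quantile normalization. The 14 constitutive core subunits had -0.36 and -0.13, and -0.42 and -0.21 after quantile normalization. Without that reference the core median in CD8α- cells was -0.22 as deposited, -0.39 after quantile normalization and 0.43 after centring, so its sign turned with the scaling.

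Outside the immunoproteasome genes, members called between genotypes in both subsets were regulatory particle genes and Psmb4. Psmd11, a lid subunit, was at 10.36 and 10.74 in WT CD8α- cells, 10.84 and 10.99 in WT CD8α+ cells, 12.11 and 12.39 in knockout CD8α- cells and 12.40 and 12.50 in knockout CD8α+ cells (1.70 ± 0.20 in CD8α- and 1.53 ± 0.20 in CD8α+ cells). Psmd2, the large scaffold of the base, was at 10.52 and 10.17 in WT CD8α- cells, 10.23 and 10.79 in WT CD8α+ cells, 11.56 and 11.73 in knockout CD8α- cells and 11.98 and 12.32 in knockout CD8α+ cells (1.30 ± 0.25 and 1.64 ± 0.25). Psmc4, an ATPase, was at 12.23 and 12.10 in WT CD8α- cells, 12.22 and 12.31 in WT CD8α+ cells, 10.59 and 10.57 in knockout CD8α- cells and 10.64 and 10.69 in knockout CD8α+ cells (-1.59 ± 0.16 and -1.60 ± 0.16). All knockout arrays lay above all WT arrays for Psmd11 and Psmd2 and below them for Psmc4.
Psmc2, another ATPase, was at 13.31 and 13.50 in WT CD8α- cells, 13.35 and 13.40 in WT CD8α+ cells, 12.08 and 12.14 in knockout CD8α- cells and 12.21 and 12.38 in knockout CD8α+ cells (-1.30 ± 0.17 and -1.08 ± 0.17). Psmb4, with the values given above, differed by -1.42 ± 0.18 and -1.32 ± 0.18 in CD8α- and CD8α+ cells. Psmd10, a chaperone of the base known as gankyrin, was at 8.65 and 8.69 in WT CD8α- cells, 8.84 and 9.18 in WT CD8α+ cells, 7.86 and 7.87 in knockout CD8α- cells and 8.03 and 8.15 in knockout CD8α+ cells (-0.80 ± 0.18 and -0.92 ± 0.18). The calls of Psmb4, Psmc2, Psmc4 and Psmd11 were kept in both subsets whichever array was left out, and with both arrays with neutrophil transcripts left out. In CD8α- cells the call of Psmd2 was lost without WT CD8α- replicate 2 and that of Psmd10 without either WT CD8α- array. Without both arrays with neutrophil transcripts Psmd10 lost its call in both subsets (limma adjusted p = 0.0544 and 0.0522) and Psmd2 in CD8α- cells (limma adjusted p = 0.0501).
Other calls were those of Psmb6 (-0.46 ± 0.15) and Psma6 (-0.50 ± 0.16) in CD8α- cells, both lost when any single array was left out. In CD8α+ cells they were those of Psma5 (0.64 ± 0.18), Psmb2 (1.42 ± 0.28), Psmd3 (0.56 ± 0.17), Psmd13 (0.97 ± 0.30) and Psmc6 (-0.61 ± 0.17). Each of these 5 was lost without WT CD8α+ replicate 1 and without at least 1 other array, and of the 7 only that of Psmb2 was kept without both arrays with neutrophil transcripts. Psmd3, a lid subunit, was at 8.61 and 8.61 in WT CD8α- cells, 8.61 and 8.87 in WT CD8α+ cells, 8.90 and 8.94 in knockout CD8α- cells and 9.37 and 9.22 in knockout CD8α+ cells. Psmd13, also of the lid, was at 8.87 and 8.40 in WT CD8α- cells, 8.51 and 9.21 in WT CD8α+ cells, 8.92 and 9.37 in knockout CD8α- cells and 9.90 and 9.77 in knockout CD8α+ cells. Psmc6, an ATPase, was at 10.38 and 10.37 in WT CD8α- cells, 10.92 and 11.03 in WT CD8α+ cells, 10.18 and 10.32 in knockout CD8α- cells and 10.26 and 10.48 in knockout CD8α+ cells. In these 3 genes the arrays of the genotypes did not overlap in CD8α+ cells. Over all genes, 39.7% lay apart and higher there and 32.3% apart and lower. With each array centred on its median the sign turned for Psmb6 (0.20) and Psma6 (0.16) in CD8α- cells and for Psmc6 (0.068) in CD8α+ cells.

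Second probe sets bear directly on these differences. In CD8α- cells 5 of the 11 called members had a second probe set above the filter, and in all 5 it had the opposite sign. Psmb4 gave -1.42 by its brightest probe set and 0.06 by the second, Psmc2 -1.30 and 0.39, Psmc4 -1.59 and 0.01, Psmd11 1.70 and -0.34, and Psmb8 1.11 and -1.13. The second probe set of Psmb8 was itself called lower in knockout CD8α- cells. In CD8α+ cells 6 of 8 had the opposite sign, and the second probe sets of Psma5 and Psmd13 were called the same way. Over the 19 members with 2 probe sets the signs matched in 9 in CD8α- and 11 in CD8α+ cells (47.4% and 57.9%), against 56.2% and 56.4% of 3626 genes, so in members and other genes alike the direction between genotypes depended on the probe set. For the averaged subset difference the signs matched in 18 of 19 (94.7%), against 76.4% of genes. Some of these second values were very small, such as 0.007 for Psmb1 and 0.028 for Psmd7. Of the 15 members called on average, 5 had a second probe set. It was called the same way in 2, and in 3 it shared the sign but was not called.

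**Figure D5:**
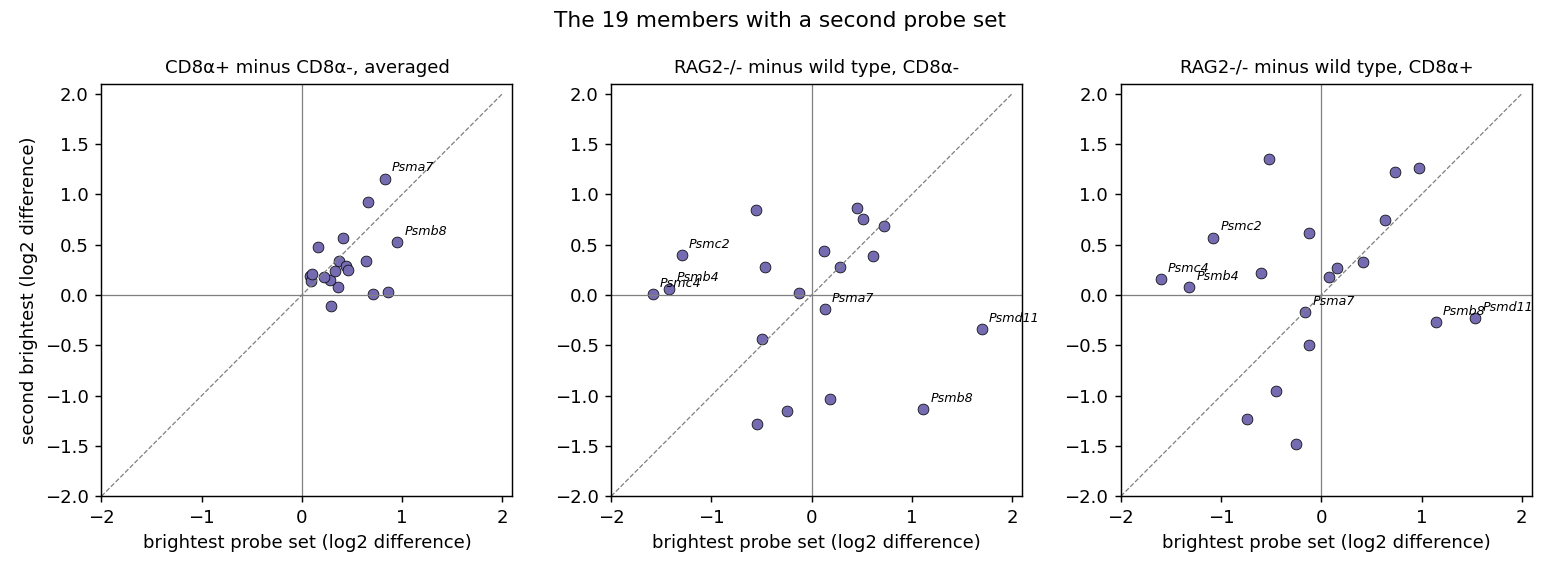
Log2 difference by the brightest probe set (x axis) against the second brightest (y axis) of the 19 members that have both, for the averaged subset difference and for the knockout against WT in each subset, with a dashed line for equal values. In the left panel 18 of 19 points share a sign, whereas Psmb8, Psmb4, Psmc2, Psmc4 and Psmd11 leave the line in the middle and right panels.

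Of the assembly genes, Psmg3 rose in the knockout in both subsets, at 7.14 and 7.03 in WT CD8α- cells, 7.23 and 7.62 in WT CD8α+ cells, 8.72 and 8.62 in knockout CD8α- cells and 9.42 and 9.47 in knockout CD8α+ cells (1.59 ± 0.19 and 2.02 ± 0.19). Tap1 rose in the knockout in both subsets (0.91 ± 0.24 and 1.11 ± 0.24), Lap3 in CD8α- cells (2.23 ± 0.30) and Psmf1, a proteasome-binding protein, in CD8α+ cells (0.85 ± 0.17), whereas Tapbp, the chaperone that loads MHC class I, fell in CD8α+ cells (-0.88 ± 0.21). Nfe2l2 rose in CD8α- cells (1.09 ± 0.25). Of the regulators, the receptor chain Ifngr1 (1.13 ± 0.29 and 1.45 ± 0.29) and the kinase Jak1 (1.48 ± 0.32 and 1.10 ± 0.32), both of the interferon-gamma pathway, rose in both subsets, and the transcription factor Irf1 rose in CD8α- cells (1.62 ± 0.28). Each of these was called by limma with an adjusted p under 0.05, and for each, processing and genotype cannot be told apart. Without both arrays with neutrophil transcripts the calls of Nfe2l2, of Ifngr1 in CD8α- cells and of Jak1 in CD8α+ cells were lost. Over all genes 23.4% were called higher in CD8α- and 20.8% in CD8α+ cells. Of the other regulators tested, Ifngr2 read 9.06 and 8.50 in WT CD8α+ cells against 8.10 and 8.21 in the knockout. Irf2 read 7.91 and 7.31 in WT CD8α- cells against 7.17 and 6.18 in the knockout. Jak2, Irf8 and Nlrc5 overlapped between genotypes in both subsets.

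Transcripts of other cells moved with the genotype. Of 9 macrophage genes tested 9 rose in knockout CD8α- cells and 8 in knockout CD8α+ cells, beside 23.4% and 20.8% of all genes. Summed macrophage transcripts were at 13.75 to 15.53 on knockout arrays against 12.44 to 13.56 on WT arrays. Of 3 NK cell genes 2 rose in each subset, with summed levels of 9.13 to 11.92 against 6.87 to 7.99. Of 6 neutrophil genes 0 were called, with 7 of 9 genes at 5 or more on RAG2-/- CD8α- replicate 2 and 6 of 9 on RAG2-/- CD8α+ replicate 1. Of 6 B cell genes 5 fell in CD8α- and 6 in CD8α+ cells, beside 17.1% and 16.1% of all genes. Summed B cell transcripts were at 11.30 to 12.22 on WT arrays and 8.13 to 8.78 on knockout arrays. Of 3 T cell genes 0 were called in CD8α- cells and 2 fell in CD8α+ cells, and of 6 plasmacytoid genes 0 were called in either. Summed erythroid transcripts were at 9.16 on RAG2-/- CD8α- replicate 2 and 8.88 on RAG2-/- CD8α+ replicate 2, against 5.40 to 6.48 on the other arrays, and the 1 erythroid gene tested was not called. The macrophage genes C1qa and C1qc and the NK cell genes Klra8 and Nkg7 passed the filter only through knockout arrays. The B cell genes Fcmr, Igha and Pou2af1 and the T cell gene Cd2 passed it only through WT arrays. For these genes the filter largely fixed the direction beforehand. The part of other cells in the genotype differences of the proteasome genes was not tested.

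The other promoter motifs searched, on both strands, are given because some matches lie in genes described above. The interferon-stimulated response element core, a pair of GAAA repeats with any 2 bases between them, was found in 3.44% of all windows and in 4 of 37 member windows, among them that of Psme1, just after its start (chr14:55578493-55578522, plus strand, match at 10 to 19 on the opposite strand). The antioxidant response element core, TGACNNNGC, known to bind Nfe2l1 and Nfe2l2, was found in 12.4% of all windows and in 6 member windows, among them Psmb5 (chr14:54618023-54618052, minus strand, -47 to -39) and Psmb6 (chr11:70525338-70525367, plus strand, -9 to -1). Capitals mark the matches.
Psme1: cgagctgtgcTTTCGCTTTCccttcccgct
Psmb5: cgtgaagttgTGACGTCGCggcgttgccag
Psmb6: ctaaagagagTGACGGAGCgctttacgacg
The NF-kB motif, GGG and TTTCC with any 2 bases between them, was found in 1.63% of all windows and in 0 of 37 member windows. A match is a description of these letters and shows neither binding nor a cause.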

How the data were processed

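RNA of 8 samples was read on Affymetrix arrays. The authors deposited log2 expression values per probe set, which were used as deposited. Per the submitters' processing notes, wild type arrays went through GCRMA with affy, and knockout arrays through GCRMA. Their versions, and which arrays were normalized in 1 run, are not stated here. Gene names came from GEO's platform annotation (34945 probe sets with 1 gene name, 932 with several, 9160 with none).

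Probe sets with log2 5 or more on at least 2 arrays were kept, 1 per gene (highest mean). The 4 groups were fitted with limma 3.58.1 (R 4.3.3; eBayes, 4 residual degrees of freedom), and p-values were 2-sided, adjusted by Benjamini-Hochberg over 8763 genes and called under 0.05. The fit was tested on simulated data. The members, lists and naming rule were chosen with earlier results of these data known. Every member may be named. Members called in any comparison, the catalytic subunits, Psme1 and the extremes are given on every array. Alternatives were other scalings, filters, an offset, other probe set rules, limma-trend, the compared groups alone, a replicate block and leaving out each array. Added after seeing the data were leaving out both arrays with neutrophil transcripts, raising values below 5 to 5, exchanged replicate numbers and the second probe sets. Sequences are from RefSeq (GRCm38.p6). The files name no genome build, so no other coordinates are given. The number of arrays limits the precision. Python 3.11.15 with matplotlib 3.10.9 drew the figures.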

Additional observations from a re-analysis of the deposited data

How the results depend on the processing

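With 2 arrays a group, the calls rest on few values, and when 1 array is left out the lone array of its group is assumed to vary like the others. The number of members called ranged from 1 to 5 in WT between subsets when each array was left out, from 2 to 8 in the knockout, from 5 to 10 and from 8 to 16 between genotypes in CD8α- and CD8α+ cells, and from 9 to 16 for the averaged subset difference. In WT it was 10 with limma-trend and robust eBayes, 1 in a fit of the compared groups alone and 1 without both arrays with neutrophil transcripts, beside 5. In the knockout it was 5 with no filter, 3 with the compared groups alone and 4 without those arrays, beside 8. Between genotypes in CD8α- cells it was 25 with each array centred on its median, 17 with no filter, 18 with each probe set on its own and 5 without those arrays, beside 11. In CD8α+ cells it was 25 with centring and 7 without those arrays, beside 15. Whether arrays with the same replicate number belong together is not in the labels. Correlations of replicate differences between groups lay between -0.15 and 0.11, which with 2 arrays a group cannot settle it. With the replicate number as a block the count was 3 in WT, 5 in the knockout, 9 and 13 between genotypes, 13 on average and 0 for the interaction. With the numbers exchanged in knockout CD8α+ cells, the block gave 8 in the knockout. Some differences between genotypes that were called in the main fit or the refit turned in sign. With the mean of its probe sets this was Psmb8 in CD8α- cells (-0.011). With centring these were Psmb6 in CD8α- (0.20) and CD8α+ cells (0.46), Psma6 in CD8α- cells (0.16) and Psmc6 in CD8α+ cells (0.068). Differences called in neither fit could turn too, such as Psmb5 in CD8α- cells, -0.205 as deposited and 0.45 with centring. The 2 probe sets averaged for Psmb8 gave 1.11 and -1.13. Centring used the median of all probe sets, 2.33 to 2.38 on knockout arrays and 2.97 to 3.06 on WT arrays, and shifts every value of an array alike. Medians of the probe sets above the filter were at 8.09 to 8.27 on all 8 arrays. Why the medians of all probe sets differ between genotypes was not tested. Over 78 differences of named members and 1469 refits, 244 lost the call and 25 gained it. In 1195 a call was kept in its direction, or an uncalled difference stayed uncalled with either sign. The interaction called 0 members under every alternative run, and no alternative gave a member called lower in CD8α+ than in CD8α- cells.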
